A study of Mus musculus with 2 samples.

Results

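The Dppa genes (developmental pluripotency associated) are named for their activity in pluripotent cells, and 4 of them, Dppa2, Dppa3, Dppa4 and Dppa5a, were followed here in mouse embryonic stem cells that lack telomerase RNA. They were taken by name as 4 of the 38458 gene columns of the count tables. The cells were line DKO741, a single Terc-/- line made from E14 mouse embryonic stem cells by replacing both alleles of Terc, the telomerase RNA gene, with the targeting construct TR-10. The PGK-neo cassette of the first round was flanked by loxP sites and removed with a Cre adenovirus before the second allele was targeted. Both groups carried this genotype and differed in passage. The sample labels give passage 100 for PD100 cells and passage 800 for PD800 cells, whereas the paper defines PD as population doubling. The study calls PD100 pre-ALT and PD800 post-ALT (ALT is alternative lengthening of telomeres, the upkeep of telomeres without telomerase). Stocks were kept on embryonic fibroblast feeders and the cells used were feeder-free. Each group was 1 inDrops library, in which single cells are captured in droplets and each captured RNA molecule is counted once by its unique molecular identifier (UMI). With 1 library per group there was no replicate, no p-value was computed, and passage and library cannot be told apart. All intervals below are 95% intervals that cover counting error only.

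DPPA2 and DPPA4 are nuclear proteins with a SAP domain that bind DNA and work as a pair at developmental promoters, at young LINE-1 elements and upstream of the 2-cell-like gene Dux. DPPA3 (also called STELLA or PGC7) is a maternal and germ line protein that binds UHRF1 and keeps it, and with it the maintenance methyltransferase DNMT1, from chromatin, so that DNA methylation falls. DPPA5A (ESG1) is a small RNA-binding protein with a KH domain and one of the most abundant transcripts of naive mouse embryonic stem cells. In such cultures Dppa3 is known for uneven expression from cell to cell, whereas Dppa5a is made by nearly all cells.

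In the GRCm38 annotation (GENCODE M21) the pair lies on 1 strand, Dppa4 at chr16:48283733-48294237 (+) and Dppa2 9.7 kb further on at chr16:48303908-48319723 (+). Dppa3 lies at chr6:122626410-122630272 (+), beside Gdf3 and Nanog, and Dppa5a at chr9:78367052-78368177 (-), beside Ooep. Each of the 4 is a protein-coding gene with pseudogene copies. Of the annotated transcripts, those of 8 other genes shared at least 20 of their 25-base words with Dppa2, 4 with Dppa3, 2 with Dppa4 and 10 with Dppa5a. Among these 24 only Pigp and Gm10112, both with words of Dppa5a, had a column in the tables, and they held 80 and 2 UMIs in PD100 and 198 and 0 in PD800. How reads that fit both a gene and such a copy were assigned is not given in the sources used here. Coding stretches of 90 bases, chosen for the most differing bases, show how little separates the closest named copies. Dppa5b (chr9:78245550-78246135, +) and Dppa5c (chr9:78271998-78272583, +) were identical to each other over these bases and matched Dppa5a at 288 of 297 aligned coding bases (97.0%). Dppa3-ps (chrX:37625647-37626097, -) matched Dppa3 at 443 of 451 (98.2%). The stretches run 5′ to 3′ from the GENCODE transcripts, with capitals at the bases that differ between gene and copy, and start at coding base 164 of Dppa5a and 77 of Dppa3.
Dppa5a: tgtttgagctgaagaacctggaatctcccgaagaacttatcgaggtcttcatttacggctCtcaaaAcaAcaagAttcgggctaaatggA
Dppa5b: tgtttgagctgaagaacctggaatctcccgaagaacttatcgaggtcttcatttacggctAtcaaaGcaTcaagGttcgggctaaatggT
Dppa5c: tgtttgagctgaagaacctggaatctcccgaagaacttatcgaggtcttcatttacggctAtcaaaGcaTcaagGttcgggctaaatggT
Dppa3: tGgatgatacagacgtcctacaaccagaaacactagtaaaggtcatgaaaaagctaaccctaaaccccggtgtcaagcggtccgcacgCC
Dppa3-ps: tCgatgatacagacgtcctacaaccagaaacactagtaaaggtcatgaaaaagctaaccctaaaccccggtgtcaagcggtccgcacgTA

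The tables held 1291 PD100 and 1666 PD800 barcodes, of which 814 and 900 had at least 1000 UMIs and at most 20% mitochondrial UMIs and were used as cells. They summed to 1826233 and 2580963 UMIs, with medians of 2151 and 2701.5 per cell. The median mitochondrial share was 1.23% in PD100 and 4.42% in PD800. With cells of at most 10% mitochondrial UMIs, or with library totals without mitochondrial genes, the log2 ratios given below became -3.89 and -3.85 for Dppa3, -0.98 and -0.93 for Dppa4, -0.09 and -0.04 for Dppa2 and 0.13 and 0.18 for Dppa5a. The libraries shared 21 barcodes, 8 of them among the cells used. Terc, the deleted gene, had 0 UMIs in both, but its RNA has no long poly(A) tail and is poorly captured in such libraries, so this checks little. Cells were clustered without the 4 Dppa genes, and 38 PD100 cells formed a cluster apart. A marker was counted in a cluster if its mean there was at least 0.1 UMI per cell. The cluster of 38 cells had 16 of 17 extraembryonic endoderm markers (Gata6, Sox17 and Col4a1 among its leading genes). By the same count it had 5 of 12 embryonic stem cell markers. It is called endoderm-like, and no PD800 cell joined it. The other cells fell into 1 PD100 cluster of 776 cells and 2 PD800 clusters of 470 and 430 cells. By that count each had 9 to 11 of 12 embryonic stem cell markers and 1 of 17 endoderm markers. The 11 fibroblast markers, which would mark feeders, summed to 61 UMIs in PD100 and 44 in PD800.

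Dppa3 was far lower in PD800, Dppa4 was lower by nearly 2-fold, and Dppa2 and Dppa5a differed little. Dppa3 had 74 UMIs in PD100 and 7 in PD800. As a share of all UMIs of the library, on the usual CPM scale, this was 40.5 CPM (31.8 to 50.9, exact Poisson) against 2.71 CPM (1.09 to 5.59). The level was 14.9-fold lower in PD800, a log2 ratio of -3.90 (-5.26 to -2.79, exact conditional interval). Among the 6984 genes that summed to 50 UMIs or more, Dppa3 had the 19th lowest ratio.

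Dppa4 had 476 UMIs in PD100 (261 CPM, 238 to 285) and 342 in PD800 (133 CPM, 119 to 147). Its log2 ratio was -0.98 (-1.18 to -0.77), just inside 2-fold. Dppa2, its partner, had 300 UMIs in PD100 (164 CPM, 146 to 184) and 398 in PD800 (154 CPM, 139 to 170). Its log2 ratio of -0.09 had an interval that held 0 (-0.31 to 0.13). Dppa5a had 16145 UMIs in PD100 (8841 CPM, 8705 to 8978) and 24974 in PD800 (9676 CPM, 9557 to 9797). Its log2 ratio of 0.13 (0.10 to 0.16) was small but outside counting error. The only other gene of that name with a column, Dppa1, had 0 and 2 UMIs. The Poisson intervals of the 2 libraries overlapped for Dppa2 and for none of the other 3.

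**Figure D1:**
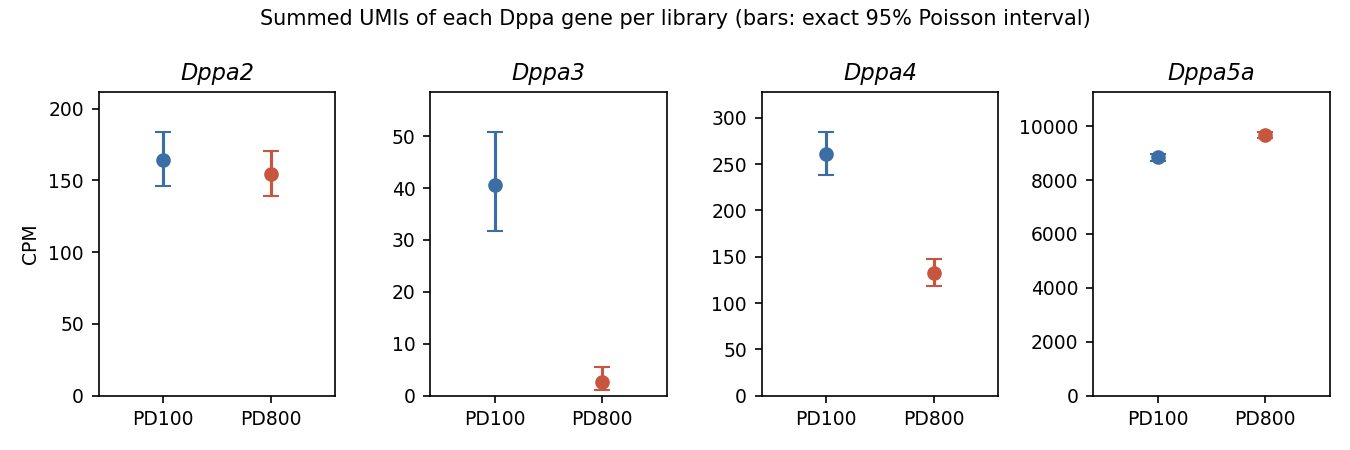
Summed level of each Dppa gene in the PD100 and PD800 libraries, in CPM on axes that start at 0 and differ between panels. Points are libraries (1 per group) and bars are exact Poisson intervals, which lie apart for Dppa3, Dppa4 and Dppa5a and overlap for Dppa2.

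Of the 4, 1 (Dppa3) was lower by 2-fold or more, against 16.9% of the 6984 genes, and 0 were higher by 2-fold or more, against 9.22%. The median gene had a log2 ratio of -0.34, so most genes lay below 0 on this scale. Relative to that median, Dppa3 was at -3.56, Dppa4 at -0.63, Dppa2 at 0.25 and Dppa5a at 0.47. On that relative scale again 1 of the 4 was lower by 2-fold, against 7.79% of genes, and 0 were higher, against 13.9%. Median-of-ratios scaling gave log2 ratios of -3.43 for Dppa3, -0.50 for Dppa4, 0.38 for Dppa2 and 0.60 for Dppa5a. The directions of Dppa3, Dppa4 and Dppa5a therefore held under each scaling tried, and that of Dppa2 turned from lower to higher with median-of-ratios. With that scaling 1149 genes were higher and 404 lower by 2-fold or more, against 644 and 1178 with library totals.

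The balance within the Dppa2 and Dppa4 pair needs no scaling, since both genes were counted in the same cells. PD100 had 0.630 Dppa2 UMIs for each Dppa4 UMI and PD800 had 1.16. The ratio of these ratios was 1.85, a log2 value of 0.88 (0.58 to 1.19), so the pair shifted towards Dppa2. It was 1.84 in cells with at least 2000 UMIs, 1.85 without the endoderm-like cluster and 1.88 without called doublets.

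To compare shares of cells, every cell was thinned to 1000 UMIs, which takes away the difference in depth. With exact binomial intervals, 27 of 814 PD100 cells then had Dppa3 (3.32%, 2.20 to 4.79), whereas only 2 of 900 did in PD800 (0.222%, 0.0269 to 0.800). The difference was -3.09 percentage points (-4.57 to -1.91, Newcombe interval). Dppa4 was seen in 155 PD100 cells (19.04%, 16.4 to 21.9) and 92 PD800 cells (10.2%, 8.32 to 12.4), a difference of -8.82 points (-12.2 to -5.48). Dppa2 was seen in 114 PD100 cells (14.0%, 11.7 to 16.6) and 116 PD800 cells (12.9%, 10.8 to 15.3), a difference of -1.12 points (-4.38 to 2.11). Dppa5a was seen in 792 PD100 cells (97.3%, 95.9 to 98.3) and 894 PD800 cells (99.3%, 98.6 to 99.8), a difference of 2.04 points (0.836 to 3.44). At full depth the shares were 6.14% and 0.667% for Dppa3, 34.5% and 25.7% for Dppa4, 23.0% and 29.9% for Dppa2 and 99.1% and 99.7% for Dppa5a. For Dppa2 the larger PD800 share at full depth was not seen at 1000 UMIs, where the mean over all possible draws was 12.98% in PD100 and 13.02% in PD800. Thinned to 2000 UMIs, with shallower cells left out, its shares were 22.6% and 25.04%.

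The endoderm-like cluster gave a reference within PD100 for cells of another type, at a median depth of 2314 UMIs against 2148.5 for the other PD100 cells. Dppa3 had 0 UMIs in its 38 cells, which allows 7.89% of cells with a UMI if 3 counts are taken as the floor and 9.25% from the exact binomial interval, against 3.48% of the other 776 cells at equal depth. Dppa4 was seen in 2 of the 38 cells (5.26%, 0.644 to 17.7) and in 19.7% of the others (17.0 to 22.7). Dppa2 was seen in 3 (7.89%, 1.66 to 21.4) and in 14.3% of the others (11.9 to 17.0). The intervals overlapped for Dppa4 as well as for Dppa2. Summed over the cluster, Dppa4 was at 57.1 CPM (18.5 to 133) against 271 CPM in the other cells, and Dppa2 at 45.7 CPM (12.4 to 117) against 170 CPM. Dppa5a remained high there, at 5307 CPM (4836 to 5812) against 9019 CPM. It was seen in 34 of the 38 cells at equal depth (89.5%, 75.2 to 97.1) against 97.7% of the others, and in all 38 at full depth. What part of them came from free RNA in the droplets was not tested.

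**Figure D2:**
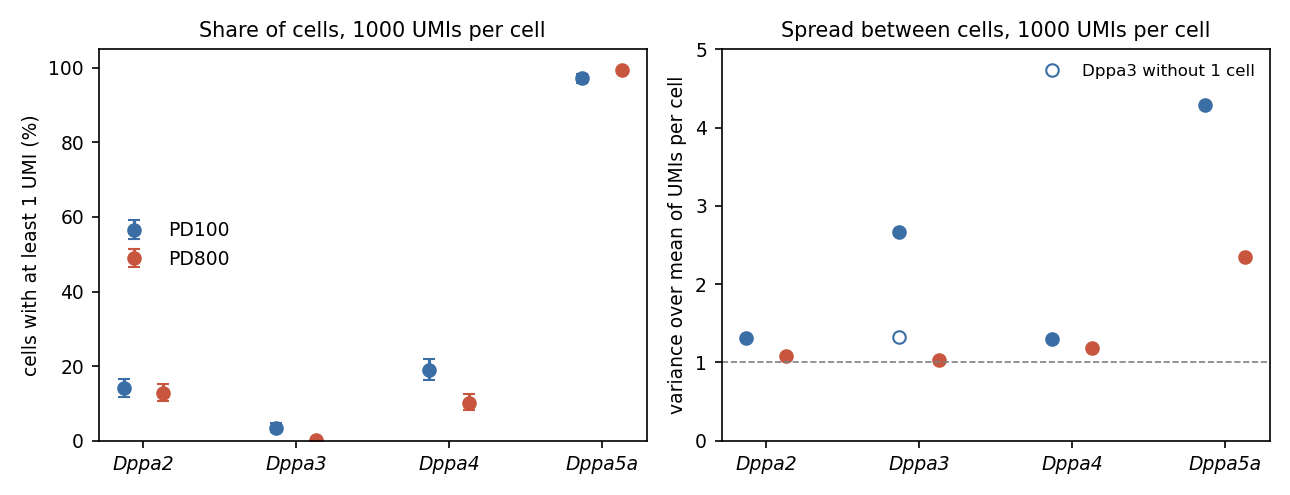
Left, percent of cells with at least 1 UMI of each Dppa gene, with exact binomial intervals, and right, variance over mean of UMIs per cell, both at 1000 UMIs per cell. The dashed line at 1 is what a single rate in all cells would give. The open circle is Dppa3 in PD100 without the 1 cell with 9 UMIs, where the value falls from 2.66 to 1.33.

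Spread between cells was measured as the variance over mean of the UMIs per cell at 1000 UMIs, averaged over all possible draws, where 1 is the value for a single rate in all cells. It was 2.66 in PD100 and 1.04 in PD800 for Dppa3, 1.31 and 1.08 for Dppa2, 1.30 and 1.19 for Dppa4, and 4.29 and 2.35 for Dppa5a. The ratios, PD800 over PD100, were 0.389, 0.825, 0.912 and 0.548 in that order. That of Dppa4 was within the tolerance of 1.2-fold. That of Dppa3 says little, since its PD800 value rests on 7 UMIs in 6 cells, a mean of 0.00229 UMIs per cell. Other genes within 1.5-fold of each member's level gave a reference. Their median was 1.27 in PD100 and 0.999 in PD800 for Dppa3, 1.30 and 1.19 for Dppa2, and 1.32 and 1.19 for Dppa4, so for Dppa2 and Dppa4 in PD100 and Dppa4 in PD800 the spread was that of other genes of the same level. Dppa2 in PD800 was more even than most, with 774 of 829 such genes above it. Dppa5a, with few genes as abundant, was above all 3 of them in PD100 and below 4 of 5 in PD800.

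The Dppa3 UMIs of PD100 lay in few cells, but 1 cell carried much of this. At full depth the 74 UMIs were spread over 50 cells, where a single rate scaled by each cell's depth would have given 70.3 cells, an observed over expected ratio of 0.711. There were 39 cells with 1 UMI, 5 with 2, 4 with 3, 1 with 4 and 1 with 9. The 11 cells with 2 or more held 35 of the 74 UMIs, against 3.54 such cells expected, and the 10 richest cells held 44.6%. The cell with 9 UMIs was shallow, with 1169 UMIs in all, so that Dppa3 made up 0.770% of its RNA. It lay in the PD100 cluster of 776 cells, was not called a doublet, and had 10 Dppa5a UMIs and none of Dppa2 or Dppa4.

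Without that cell, Dppa3 in PD100 had a variance over mean of 1.33 and an observed over expected ratio of 0.789. Dppa2 and Dppa4, each without its own richest cell, were at 1.31 and 1.30 in PD100, with observed over expected ratios of 0.765 and 0.806. Among the 1916 other genes within 1.5-fold of the Dppa3 level in PD100, 3 had a higher variance over mean than Dppa3 with all cells, and their median was 1.27. With each gene's richest cell left out, 407 of them were higher and the median was 1.23. Some gathering remained, since 10 cells still had 2 or more UMIs against 2.76 expected. The large variance over mean of Dppa3 nevertheless rested on 1 cell of 814. In cells with at least 2000 UMIs, thinned to 1000, which leaves that cell out, it was 1.26 in PD100 and 1.05 in PD800.

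**Figure D3:**
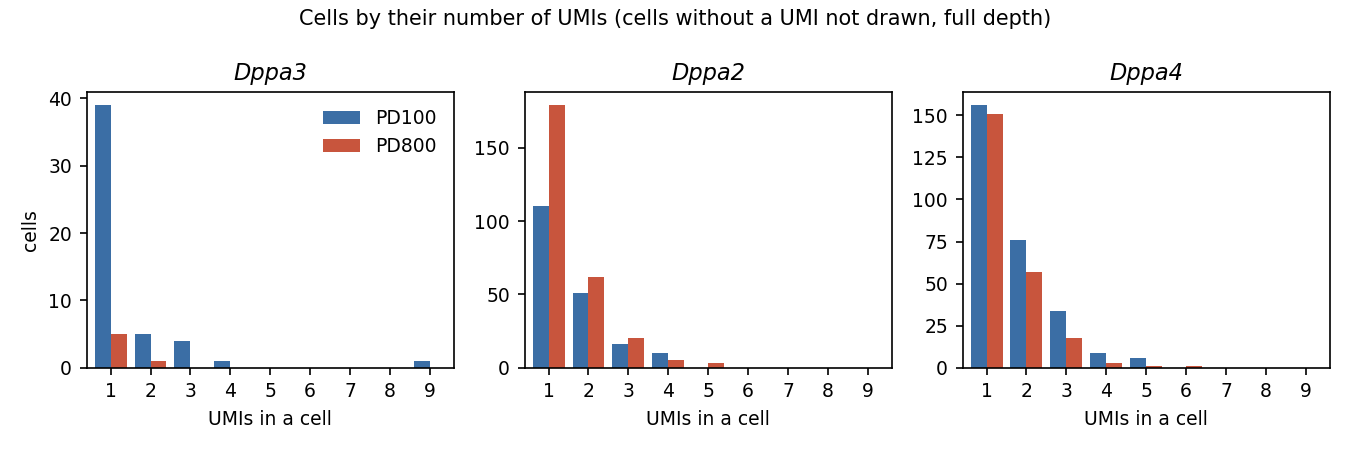
Number of cells (bars, from 0) by their UMIs of Dppa3, Dppa2 and Dppa4 at full depth in PD100 and PD800, with cells without a UMI left out. For Dppa3, 50 PD100 cells and 6 PD800 cells are drawn, and 1 PD100 cell stands apart at 9 UMIs, while no cell has over 6 UMIs of Dppa2 or Dppa4.

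The lower level of Dppa3 in PD800 did not rest on these cells. Without the richest cell of each library the log2 ratio was -4.20 (-5.87 to -2.90), and without every cell with 2 or more Dppa3 UMIs it was -3.48 (-5.18 to -2.14). Without the endoderm-like cluster it was -3.97. The 7 UMIs of PD800 lay in 6 cells, 1 of which had 2. The PD800 clusters of 470 and 430 cells had 2 and 5 of them, or 1.56 CPM (0.189 to 5.64) and 3.85 CPM (1.25 to 8.97).

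Cells with Dppa3 did not stand apart in most pluripotency genes. The 50 PD100 cells with Dppa3 had a median of 2365 UMIs against 2136 for the 764 without, and none was endoderm-like. Nanog, the core pluripotency factor, was at 72.7 CPM (33.3 to 138) in them and 71.1 CPM (59.0 to 84.9) in the others. Uhrf1, the target of DPPA3, was at 48.5 CPM (17.8 to 106) and 42.3 CPM (33.1 to 53.3). Zfp42 (REX1), a marker of the naive state, was at 808 CPM (657 to 983) against 551 CPM (516 to 587). In the 11 cells with 2 or more Dppa3 UMIs, however, Zfp42 was at 545 CPM (305 to 900), close to the cells without Dppa3. In the same 11 cells, 1 of them a called doublet, Lefty2, a secreted inhibitor of Nodal signalling, had 15 UMIs. This was 545 CPM (305 to 900) against 117 CPM (102 to 135) in cells without Dppa3. Lefty1 went the other way, with 0 UMIs (0 to 134 CPM) against 180 CPM (161 to 202). Both are also named after their values were seen. Dppa5a was at 8977 CPM in the 50 cells and 8831 CPM in the 764. Of 20 genes compared between the 50 and the 764 cells, the intervals lay apart for Zfp42 and for the endoderm marker Col4a1, both named here after their values were seen. Col4a1 was at 24.2 CPM (4.999 to 70.8) in cells with Dppa3 and 161 CPM (142 to 181) in the others, which include the 38 endoderm-like cells.

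Dppa5a, seen in nearly all cells, could be followed as a share of each cell's UMIs. In PD100 it made up 0.830% of the UMIs of the median cell, with 0.121% at the 5th percentile and 2.02% at the 95th. In PD800 the median was 0.961%, with 0.368% and 1.71%. Cells under 0.2% numbered 68 in PD100, 8 of them endoderm-like, and 14 in PD800. These shares were taken at full depth, which was lower in PD100, and the variance over mean above is the measure at equal depth. Both tails were wider in PD100, and 60 cells under 0.2% remained among the 776 cells outside the endoderm-like cluster. The variance over mean of those 776 cells was 4.25, close to the 4.29 of all PD100 cells. The PD800 clusters of 470 and 430 cells were at 9807 and 9547 CPM.

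**Figure D4:**
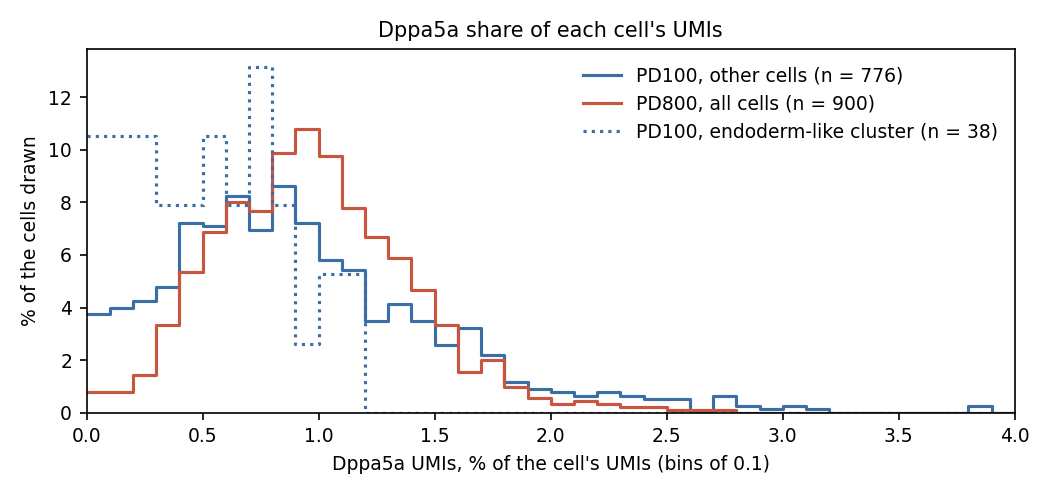
Share of each cell's UMIs that were Dppa5a (percent, bins of 0.1) against the percent of cells, for 900 PD800 cells, 776 PD100 cells and the 38 endoderm-like PD100 cells (dotted). PD100 cells reach further to both sides, with 60 of the 776 below 0.2%, against 14 PD800 cells.

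Little joint variation of the 4 genes from cell to cell was seen, but the counts were too sparse to show its absence. At 1000 UMIs per cell, Dppa2 and Dppa4 had means of 0.164 and 0.267 UMIs in PD100 and 0.145 and 0.129 in PD800. At such levels r could be low whether or not the genes vary together. At 1000 UMIs per cell, Dppa2 and Dppa4 were seen together in 23 PD100 cells, where the product of their shares gives 21.7, and in 11 PD800 cells, where it gives 11.9. Pearson's r between any pair of the 4, over 814 or 900 cells that share a library, was at most 0.0713. The genes most like each member had r of at most 0.215 over all genes seen in 5% of cells, which in counts this sparse is no finding. For Dppa5a in PD100 they were Apoe (0.215), Zfp42 (0.167) and Rpl3 (0.151), and Sparc, a secreted matrix protein and one of the endoderm markers, had the lowest r (-0.203). For Dppa3 in PD100 they were Rnf167 (0.208), Akap9 (0.195) and Bag6 (0.180). For Dppa2 they were Rbm8a (0.154), Pmpca and Csnk2a1 (both 0.121), and for Dppa4 Pold2 (0.158), Gart (0.136) and Srsf11 (0.124). In PD800 Dppa5a was most like Rpl36, Rps13 and Psmb4 (0.134, 0.122 and 0.114). Dppa2 was most like Ttc1, Snrnp40 and Rnmtl1 (0.137, 0.127 and 0.122), and Dppa4 most like Akap12, l7Rn6 and Usp5 (0.155, 0.131 and 0.126). For Dppa3, with UMIs in 6 PD800 cells, no order is read.

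None of the 8 genes nearest Dppa3 was lower by 2-fold. Gdf3, a TGF-beta family ligand 16.3 kb away, had 272 and 506 UMIs (log2 ratio 0.40), and Nanog, 77.2 kb away, had 130 and 368 (1.00). The glucose transporter gene Slc2a3, 97.5 kb away, had 507 and 1799 (1.33). Of the 8 nearest genes with at least 50 UMIs, 4 on either side and up to 1767 kb away, 0 were lower by 2-fold, against 16.9% of all genes, and 3 were higher, against 9.22%, with a median of 0.70 against -0.34. The lowest were Phc1, a Polycomb gene, with 261 and 275 UMIs (-0.42, -0.67 to -0.17), and Pex5, with 29 and 32 (-0.36). Beside the Dppa4 and Dppa2 pair the nearest such gene was Morc1, a germ line gene needed for transposon repression, 111.5 kb beyond Dppa2, with 76 and 221 UMIs (1.04). The other neighbours of the pair lay 1379.5 kb away or further. Of the 8 nearest genes, 2 were lower and 2 higher by 2-fold, both for Dppa2 and for Dppa4. Their medians were -0.44 for Dppa2 and -0.21 for Dppa4, and each set of 8 includes the partner gene. Beside Dppa5a, Ooep at 7.9 kb had 87 and 332 UMIs (1.43), whereas the 8 nearest genes had a median of 0.06.

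The lists of genes that act with the Dppa genes were described by their counts beside the 16.9% lower and 9.22% higher of all genes. Of the 10 DNA methylation genes around DPPA3, 9 had at least 50 UMIs, with 1 higher and 2 lower by 2-fold and a median of -0.28, close to the -0.34 of all genes. Uhrf1 had 78 and 90 UMIs (-0.29) and Dnmt1 48 and 59 (-0.20). The de novo methyltransferases were lower, Dnmt3b with 167 and 50 UMIs (-2.24) and Dnmt3a with 145 and 102 (-1.01). The demethylating dioxygenase gene Tet2 was higher, with 13 and 61 UMIs (1.73), and Tet1 had 93 and 69 (-0.93).

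The relatives of Dppa5a by the KH domain are genes of the egg and early embryo. Of 5, 2 had at least 50 UMIs, both higher in PD800: Ooep and Khdc3, which had 119 and 513 UMIs (1.61). Of 21 germ line genes, many of which are silenced by DNA methylation in somatic cells, 6 had at least 50 UMIs, with 3 higher, 2 lower and a median of 0.77. The meiotic gene Syce1 had the highest ratio of them, with 50 and 425 UMIs (2.59), followed by the receptor gene Kit, with 8 and 63 (2.48). The primordial germ cell gene Tfap2c, with 74 and 36 (-1.54), and the germ line gene Tdrd12, with 129 and 68 (-1.42), were lower. Ifitm3 (fragilis), also a primordial germ cell gene, was higher, with 726 and 2123 (1.05). Of 20 pluripotency genes, 19 had at least 50 UMIs, with 4 higher, 1 lower and a median of 0.06. Klf4 (124 and 566 UMIs, 1.69), Esrrb (57 and 230, 1.51), Tbx3 (46 and 145, 1.16) and Nanog were the 4 that were higher, and Klf2 (559 and 327, -1.27) was lower. Zfp42 was at -0.19.

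Of 18 genes of the 2-cell-like state, which DPPA2 and DPPA4 help to switch on through Dux, 17 had a column and none reached 50 UMIs. Their sum was 87 UMIs in PD100 and 4 in PD800. The Zscan4 genes had 71 UMIs in PD100, all in 2 cells, 1 of which had 61, and 0 UMIs in PD800. Those 2 cells had 5 Dppa2 UMIs, 43 of Dppa5a and none of Dppa3 or Dppa4. Markers of other cells were counted as well. All 10 of the 17 endoderm markers with at least 50 UMIs were lower by 2-fold, against 16.9% of all genes. The whole list summed to 2148 UMIs in PD100 and 411 in PD800. Of the 10, only Sparc (926 and 287 UMIs) reached 50 UMIs in PD800, so the others passed the minimum through PD100. The same list had named the PD100 cluster, so the direction was largely set beforehand and no conclusion is drawn. The part of the endoderm markers in the Dppa results was not tested beyond leaving out the cluster. The 7 primed epiblast markers summed to 290 and 174 UMIs. Otx2 (149 and 63) and Pou3f1 (44 and 5) made most of this difference. Sox4 (75 and 90), Zic2 (4 and 5) and T (0 and 3) were not lower in UMIs. The 8 trophoblast markers summed to 58 and 21, which rested on Krt7 (44 and 1), while Eomes had 4 and 15. These sums are not scaled to the library totals. Without the endoderm-like cells the log2 ratios of the Dppa genes were -3.97 for Dppa3, -1.03 for Dppa4, -0.14 for Dppa2 and 0.10 for Dppa5a.

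**Figure D5:**
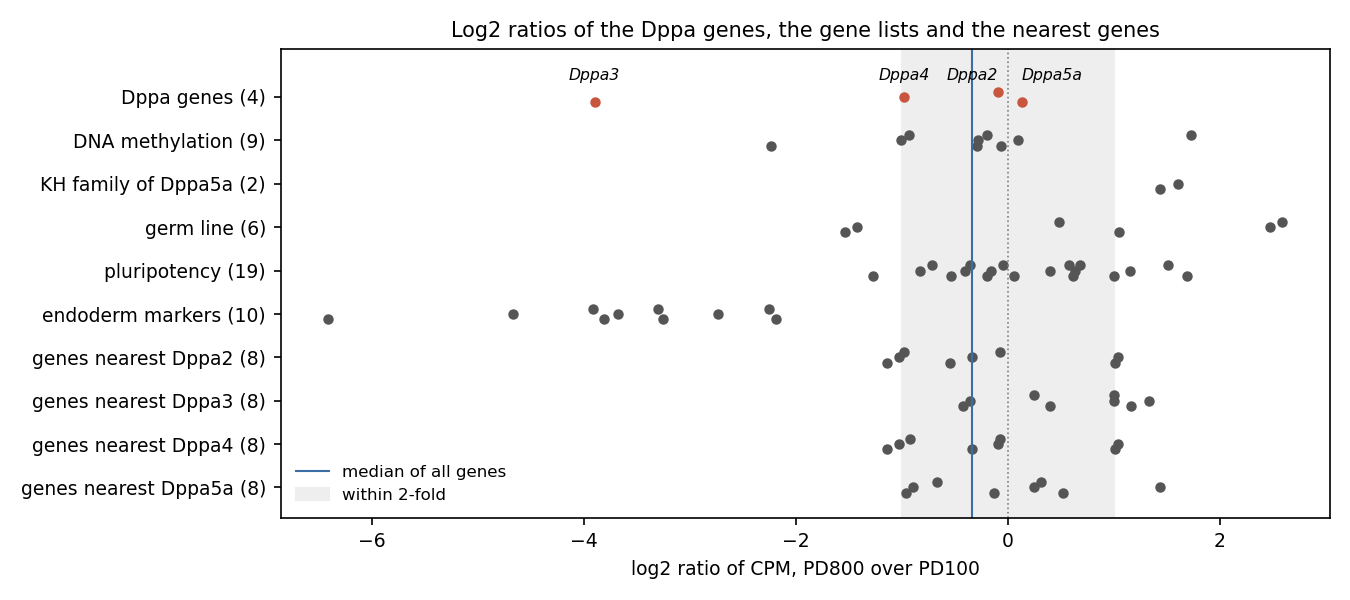
Log2 ratio of CPM, PD800 over PD100, of the 4 Dppa genes, of the genes of each list and of the 8 nearest genes with at least 50 UMIs (numbers of genes in brackets). Each point is a gene, the line is the median of all 6984 genes (-0.34) and the grey band is within 2-fold. Dppa3 lies at -3.90, outside the range of the genes nearest to it.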

How the data were processed

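The authors captured cells with inDrops and made UMI count tables with the inDrops pipeline at default settings, mapping to a transcriptome of GRCm38/mm10. The deposited tables hold raw counts per barcode and gene, before any cell filter, and the submitters' processing notes also name Scanpy. The annotation release and the handling of reads shared by gene copies are not given in the sources used here.

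The study's filter, 1000 or more counts per cell with no more than 20% mitochondrial, was applied. In both libraries it kept more cells here than the paper reports, so the cells used are not exactly the study's. The reason was not tested. UMIs were summed per library and divided by the library total (1826233 and 2580963), where 3 counts equal 1.64 CPM in PD100 and 1.16 CPM in PD800. No test was run, since each group is 1 library. Genes summing to 50 UMIs or more were compared and called at 2-fold. Thinning drew UMIs without replacement (seed 1). For clusters, 6775 over-dispersed genes other than the 4 members, 80 principal components, 15 neighbours and Louvain clustering (igraph, without a resolution setting) were used in scanpy 1.11.5, and Scrublet called 14 and 8 doublets, which were kept. Other tools were Python 3.11.15, numpy 2.4.6, scipy 1.17.1, pandas 2.3.3 and matplotlib 3.10.9. Functions were tested on simulated data.

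The members and lists were chosen with earlier results of these data known. The text names the members, any other Dppa gene, up to 4 genes per list with the highest or lowest ratios plus Uhrf1, Dnmt1, Nanog, Gdf3, Zfp42 and the Zscan4 genes, genes among the 4 nearest on either side, and the 3 genes most like each member. Other genes, among them Ifitm3, Lefty1, Lefty2 and Col4a1, are named outside this rule with their values known. Alternatives changed the cell filter, scaling, thinning and UMI minimum, or left out doublets, the endoderm-like cluster or the richest cell.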

Additional observations from a re-analysis of the deposited data

Results flagged for a closer look

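Barcodes that the cell filter left out, 477 in PD100 and 766 in PD800 with 246800 and 458381 UMIs, also held UMIs of the Dppa genes, and were marked because their counts were above the limit of 3. Dppa3 had 18 UMIs in those of PD100 (72.9 CPM, 43.2 to 115) and 0 in those of PD800, at least 11.1-fold lower if set at a floor of 3 UMIs over the library, with an exact conditional bound of -3.03 on the log2 scale, which is nearer to 0. Dppa4 had 64 and 84 UMIs there (log2 ratio -0.50, -0.99 to -0.01). Dppa2 had 41 and 57 (-0.42, -1.02 to 0.20). Dppa5a had 2073 and 3681 (-0.06, -0.14 to 0.01), so that its level there was 8400 CPM in PD100 and 8030 CPM in PD800.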

How the results depend on the processing

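Of 174 repeats of the comparisons that carry the text, 143 stayed within counting error or within the set tolerance (1.2-fold for variance over mean, 1.5-fold for counts, 0.5 for list medians), 31 moved and none of these changed the sign of a ratio or difference whose interval excluded 0. For Dppa3 the log2 ratio ran from -4.32 to -3.43. Under median-of-ratios scaling the log2 ratios were 0.38 for Dppa2, -0.50 for Dppa4 and 0.60 for Dppa5a, and 1149 genes were higher and 404 lower by 2-fold. This scaling raised every log2 ratio alike, by less than 0.5, so no list median could leave its tolerance under it. The median of the DNA methylation list went from -0.28 to 0.19 and that of the pluripotency list from 0.06 to 0.53. The Dppa5a log2 ratio was 0.19 in cells with at least 2000 counts, 0.10 with no filter on cells, 0.18 with totals without mitochondrial genes, 0.10 as the mean of each cell's share (0.0986) and 0.10 without the endoderm-like cluster, larger or smaller than 0.13 by more than its counting error. Thinned to 2000 UMIs, with shallower cells left out, the differences in share were 2.46 points for Dppa2, -4.76 for Dppa3, -14.7 for Dppa4 and 0.645 for Dppa5a, and without thinning 6.92 for Dppa2, -5.48 for Dppa3 and 0.527 for Dppa5a. In cells with at least 2000 counts thinned to 1000 it was 3.50 for Dppa5a. The variance over mean ratio of Dppa3 was 0.722 thinned to 2000 UMIs, 0.510 without thinning, 0.833 in cells with at least 2000 counts and 0.754 without the richest cell, and that of Dppa5a was 0.457 thinned to 2000 UMIs and 0.938 without thinning. The 5 and the 20 richest cells held 29.7% and 59.5% of the Dppa3 UMIs of PD100. With at least 20 UMIs per gene 995 genes were higher and 1916 lower, and the germ line median was 0.18, and with at least 200 UMIs 334 were higher and 401 lower. With these minimums the set of genes compared changed as well, and the germ line list held 10 genes at 20 UMIs. The cause of none of the shifts was tested. Of 60 repeats of the observed over expected ratios and richest-cell shares of the other Dppa genes, 16 moved. Leaving out a replicate could not be done with 1 library per group. No paired analysis was possible because each group has 1 library.

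The PD800 values of Dppa3 rest on 7 UMIs. Leaving out cells with 2 or more Dppa3 UMIs, and the settings of the Dppa2 to Dppa4 ratio, were chosen after seeing the data.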
